A study of Homo sapiens with 8 samples.

Results

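Ribosome biogenesis factors are the proteins that cut, fold, modify and escort ribosomal RNA on the way to a finished ribosome, and most are not part of the ribosome itself. A list of 60 of them was followed in SQ20B, an established human line of head and neck squamous cell carcinoma, chosen by gene symbol and matched through the RefSeq identifiers of the deposited transcripts. Of these, 59 were listed among 14528 named genes, and 58 had a mean level of at least 0.5 FPKM, a limit that 12106 genes passed. NPM1 was not analysed here, and NOC4L lay below the limit at 0.540 FPKM in normoxia and 0.268 in hypoxia. Polyadenylated RNA came from 4 normoxia libraries and 4 libraries of cells held in 0.5% oxygen for 16 h, with the same growth medium given for both groups and no genetic change named in the labels. All libraries come from 1 cell line. The deposited table holds 1 FPKM value per condition over its replicates, fragments scaled by transcript length and by mapped reads, so no spread between replicates and no test is given, and every comparison below is a description of those pooled values. Both values of every listed factor are FPKM summed over its transcripts, and each change is log2(hypoxia FPKM + 0.1) minus log2(normoxia FPKM + 0.1), which understates changes of low genes. In RNA of a whole culture, fewer cells that express a gene and less of its RNA per cell cannot be told apart.

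In the nucleolus, RNA polymerase I makes a long precursor that holds the 18S, 5.8S and 28S ribosomal RNAs. The small-subunit processome assembles on the precursor as it emerges, guided by the U3 small nucleolar RNA, and leaves behind a pre-40S particle that is finished in the cytoplasm. Large-subunit factors fold and trim the pre-60S particle, while small nucleolar ribonucleoproteins (snoRNPs) of the box C/D class methylate the RNA and those of the box H/ACA class convert uridine to pseudouridine. The genes are highly expressed in proliferating cells, and ribosome production is among the largest costs of growth.

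The table matched its labels. Of 8 squamous epithelial markers, 6 were listed, with a summed level of 530 FPKM in normoxia and 573 in hypoxia, led by KRT5 at 398 and 442. The listed markers of other cell types were at low levels, with sums from 0.175 to 4.78 FPKM in normoxia, and KRT14, PTPRC, COL1A1 and PECAM1 were not analysed here. The endothelial cadherin CDH5, at 4.78 and 2.83 FPKM, was the highest of them. EGLN3, an oxygen-sensing hydroxylase induced by HIF, had 4.38 and 68.1 FPKM, and the 5 listed genes of the hypoxia check were higher in hypoxia by 1.73 to 4.77 on the log2 scale.

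Every one of the 58 factors above the limit had a lower value in hypoxia, as did 56.4% of all genes. Their median log2 change was -0.82, against -0.07 for all 12106 genes, and 45 of the 58 (77.6%) were lower by at least 1.5-fold, against 11.2% of all genes. At 1.2-fold the count was 54 of 58, against 33% of all genes. A 2-fold lower value was found for 22 of them (37.9%), against 2.62% of all genes. None was higher by 1.5-fold, against 9.95% of all genes. Summed over the 59 listed factors, FPKM was 3317 under normoxia and 1791 under hypoxia, and their share of all listed FPKM went from 0.619% to 0.391%. The sum of the whole table was itself lower in hypoxia, 458431 FPKM against 536005. Scaling the columns to equal sums shifts changes by up to 0.23 on the log2 scale, and by less where FPKM is low. It moved the median of all genes to 0.15 and that of the factors to -0.60, with 29 of 58 lower by 1.5-fold against 5.01% of all genes. Under that scaling 55 of the 58 lay below 0, against 4392 of all 12106 genes.

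**Figure D1:**
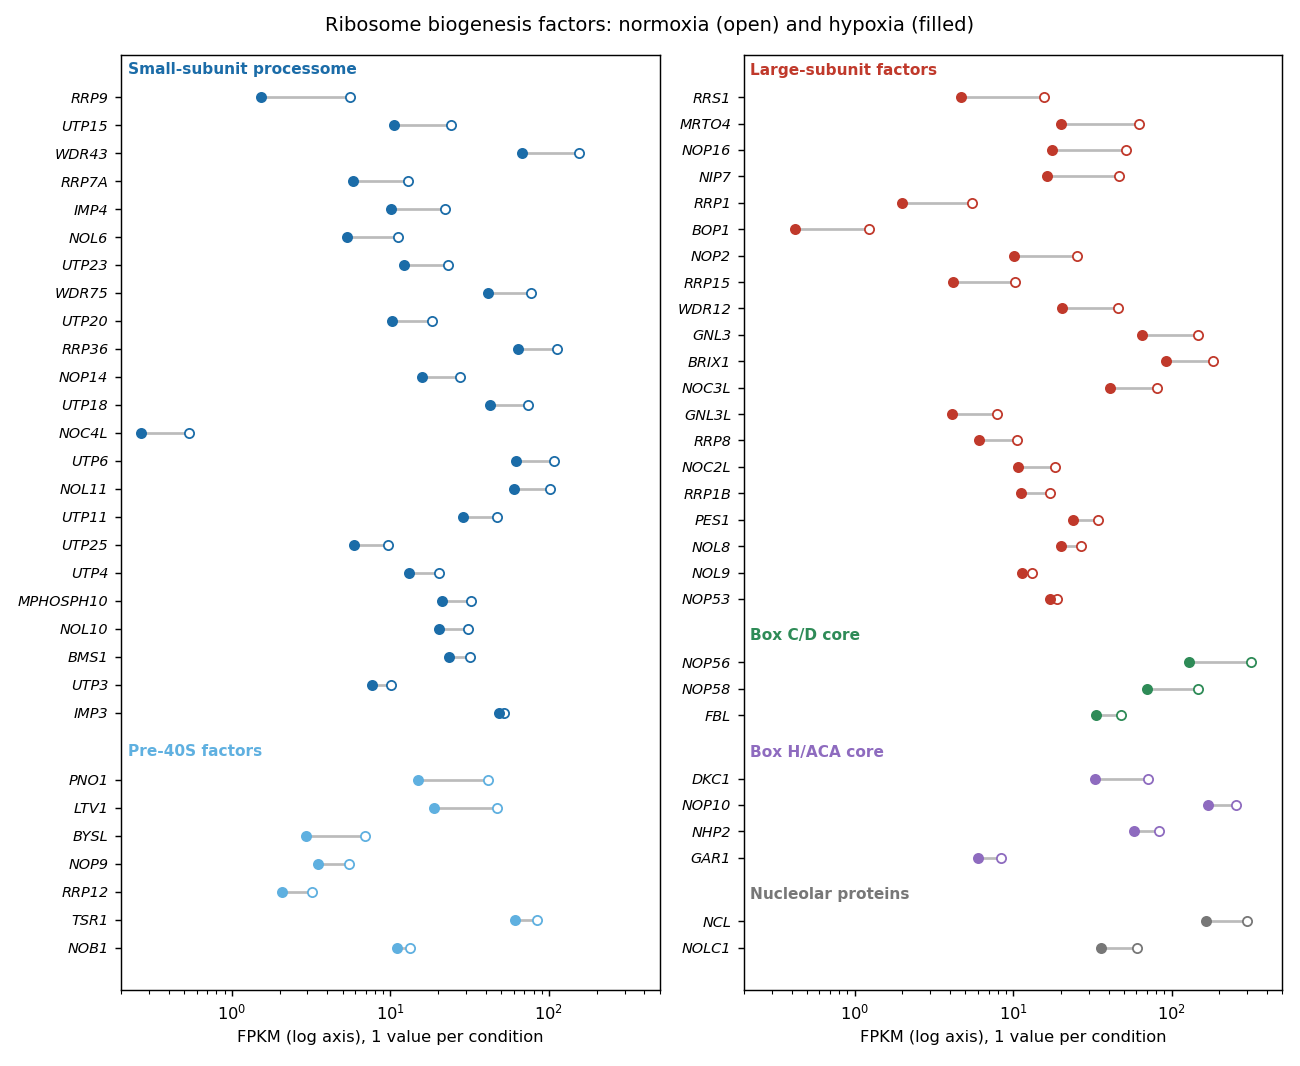
FPKM in normoxia (open circles) and hypoxia (filled circles) for each of the 59 listed factors, on a log axis and grouped by role, with factors of each role ordered from the largest change to the smallest. Each circle is 1 pooled value of 4 libraries, with no error bar, and every filled circle lies to the left of its open circle, from RRP9 (5.57 and 1.53 FPKM) to IMP3 (52.4 and 48.3 FPKM).

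The small-subunit processome held 22 factors above the limit, whose median lay at -0.80. Of these, 19 were lower by at least 1.5-fold, against 11.2% of all genes. The largest change of any factor was that of RRP9, a WD-repeat protein that binds the U3 small nucleolar RNA. Its 5.57 FPKM under normoxia stood against 1.53 under hypoxia (log2 change -1.80), which is 3.48-fold lower with 0.1 FPKM added to both. With 1 FPKM added instead, its change was -1.38, smaller than those of MRTO4 (-1.59), RRS1 (-1.54) and some other factors. With 0.1 FPKM added, only 0.132% of all genes lay as low. The RRP9 gene lies on the minus strand of chromosome 3 at positions 51967445 to 51975920 of GRCh37, the hg19 build of the deposited table.

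UTP15 and WDR43 belong to the UTP-A module, the first protein module to join the emerging precursor. UTP15 had 24.3 and 10.5 FPKM (log2 change -1.20) and WDR43 had 155 and 67.5 FPKM (-1.19). Of the same module, WDR75, NOL11 and UTP4 had log2 changes of -0.90, -0.77 and -0.62. HEATR1, a further UTP-A protein that is not among the 60, had 29.98 and 20.8 FPKM (-0.52), short of 1.5-fold. UTP6 and UTP18, of the UTP-B module, had log2 changes of -0.78 and -0.80, and UTP-B proteins outside the 60 spread more widely, with -1.32 for WDR3, -0.84 for PWP2 and -0.49 for WDR36.

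NOL6 and RRP7A, of the UTP-C module, were each lower by more than 2-fold, from 11.2 to 5.31 FPKM and from 12.9 to 5.81 FPKM. The MPP10 complex was the least uniform. Its scaffold MPHOSPH10 went from 32.3 to 21.2 FPKM (log2 change -0.61), IMP4 from 22.2 to 10.1 FPKM (-1.13), and IMP3 from 52.4 to 48.3 FPKM (-0.12). IMP3 was nearly level, and its sign depended on the scaling, with 0.11 under equal column sums and 0.06 after quantile normalization. Reads of MPHOSPH10 could be split with its 8 named pseudogenes in the annotation, those of BMS1 with 19 and those of IMP3 with 2, so these values are uncertain. Of 15 members with a named pseudogene, 1 is NPM1, which was not analysed, and the same limit holds for the others. They include NIP7 and NOP56 with 3 each and LTV1 with 1. BMS1, a GTPase of the processome, had a log2 change of -0.43, and UTP3 had -0.40, the smallest in the processome after IMP3. The other processome factors, UTP11, UTP20, UTP23, UTP25, NOL10, NOP14 and RRP36, lay between -0.60 for NOL10 and -0.93 for UTP23.

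The 7 later small-subunit factors differed widely among themselves, with a median of -0.65. PNO1, which sits at the 3′ end of the 18S RNA and holds the cleavage site until the final cut, went from 41.2 to 14.9 FPKM, a log2 change of -1.46. LTV1, a factor of pre-40S export and beak formation, went from 47.2 to 19.0 FPKM (-1.31), and BYSL from 6.97 to 2.94 FPKM (-1.22). NOB1, the nuclease that makes the final cut at that same site, went from 13.2 to 11.1 FPKM (-0.26). Its partner PNO1 was therefore 2.74-fold lower where NOB1 was 1.19-fold lower, both with 0.1 FPKM added. NOP9, RRP12 and TSR1 lay between them with -0.65, -0.60 and -0.46.

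The 20 large-subunit factors had a median log2 change of -1.08, with 16 lower by at least 1.5-fold and 10 by at least 2-fold. Of all genes, 11.2% and 2.62% were lower by these limits. RRS1, which helps to bring the 5S RNP into the early particle, went from 15.5 to 4.68 FPKM, a log2 change of -1.71. MRTO4, which holds the place of the stalk protein RPLP0 in pre-60S particles, went from 62.4 to 20.1 FPKM (-1.63). NOP16 went from 51.5 to 17.6 FPKM (-1.55) and NIP7 from 46.7 to 16.4 FPKM (-1.51). These 4 large-subunit factors were among the 0.405% of genes with the lowest changes.

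The PeBoW complex, which is needed for maturation of the 28S and 5.8S RNAs, spread more widely. BOP1 went from 1.24 to 0.420 FPKM (-1.37) and WDR12 from 45.8 to 20.3 FPKM (-1.17), but PES1 from 34.2 to 23.8 FPKM (-0.52). BOP1 was the least abundant factor above the limit, and with 1 in place of 0.1 FPKM added its change was -0.66. NOP53 had 19.0 and 17.1 FPKM (-0.15), and NOL9, a polynucleotide kinase that acts on the spacer between the 5.8S and 28S RNAs, had 13.2 and 11.3 FPKM (-0.22). With columns scaled to equal sums NOP53 lay at 0.07 and NOL9 at 0.01, so that neither was lower under that scaling. Apart from RRP1, described next, the remaining large-subunit factors lay between -0.43 for NOL8 and -1.31 for NOP2, an RNA methyltransferase of the 28S RNA. They include RRP15 with -1.28, BRIX1 and NOC3L with -0.99, RRP8 with -0.80 and NOC2L with -0.77.

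Paralog pairs allowed a comparison of related proteins. RRP1 went from 5.50 to 2.00 FPKM (-1.41), while RRP1B, encoded on the same arm of chromosome 21, went from 17.0 to 11.2 FPKM (-0.59). GNL3, or nucleostemin, went from 146 to 65.4 FPKM (-1.16) and its relative GNL3L from 7.96 to 4.10 FPKM (-0.94). The more abundant member had the larger change in the GNL3 pair and the smaller one in the RRP1 pair.

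Set side by side, the median of the large-subunit factors was lower than that of the 29 small-subunit factors by 0.27 on the log2 scale (-1.08 against -0.80). The distributions overlapped over most of their range. Of the 20 large-subunit factors, 13 lay below the small-subunit median, and 8 of the 29 small-subunit factors lay below the large-subunit median. Summed FPKM of the small-subunit factors in hypoxia was 0.573 of that in normoxia, and that of the large-subunit factors 0.484. As deposited, 82.8% of the small-subunit and 80.0% of the large-subunit factors were lower by 1.5-fold, and 31.0% and 50% by 2-fold. Over all genes these shares were 11.2% and 2.62%. With columns scaled to equal sums, the shares lower by 1.5-fold were 41.4% and 65%, against 5.01% of all genes. The order of the medians did not hold in the further lists of factors outside the 60, where other large-subunit factors had -0.66 and other small-subunit factors -0.73. With members that have a named pseudogene left out, an alternative chosen after the data were seen, the difference between the medians was -0.42.

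**Figure D2:**
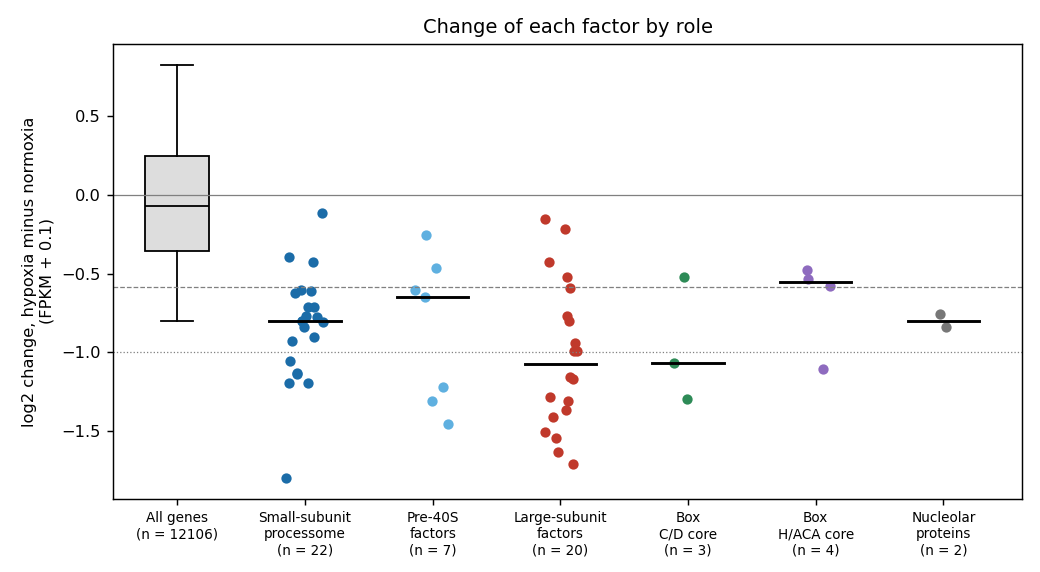
Log2 change (hypoxia minus normoxia, 0.1 FPKM added) of each factor above the limit, by role, with a black bar at each median. The grey box holds the quartiles of all 12106 genes and its whiskers the 5th to 95th percentiles, and the dashed and dotted lines mark 1.5-fold and 2-fold lower values; the large-subunit factors have their median at -1.08 and the processome factors at -0.80.

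Among the snoRNP proteins, the box C/D scaffold proteins NOP56 and NOP58 differed from their methyltransferase. NOP56 went from 316 to 129 FPKM (-1.29), NOP58 from 148 to 70.4 FPKM (-1.07) and the methyltransferase FBL (fibrillarin) from 48.1 to 33.5 FPKM (-0.52). In the box H/ACA core, it was the enzyme that had the largest change. The pseudouridine synthase DKC1 (dyskerin), which also binds telomerase RNA, went from 70.4 to 32.6 FPKM (-1.11). Its partners were closer together, with NOP10 at 254 and 170 FPKM (-0.58), NHP2 at 83.8 and 57.9 FPKM (-0.53) and GAR1 at 8.35 and 5.96 FPKM (-0.48). Of the abundant nucleolar proteins, NCL (nucleolin) went from 297 to 165 FPKM (-0.84) and the snoRNP chaperone NOLC1 from 60.7 to 35.9 FPKM (-0.76).

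The size of the change showed little relation to the level of a factor. Across the 58 factors, Spearman's rho between mean FPKM and log2 change was 0.03, a description over genes measured in the same libraries, against -0.28 across 11075 genes with an annotated transcript length and base composition. Abundant genes as a whole had lower values in hypoxia. In the highest of 5 equal classes of genes by mean FPKM, above 35.8 FPKM, the median of the genes outside the list was -0.25 and that of the 21 factors there was -0.81, with 20 of the 21 below it and IMP3 above. In the next class the medians were -0.13 and -0.82, with all 20 factors below, and in the middle class -0.04 and -0.80, with all 11 below.

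**Figure D3:**
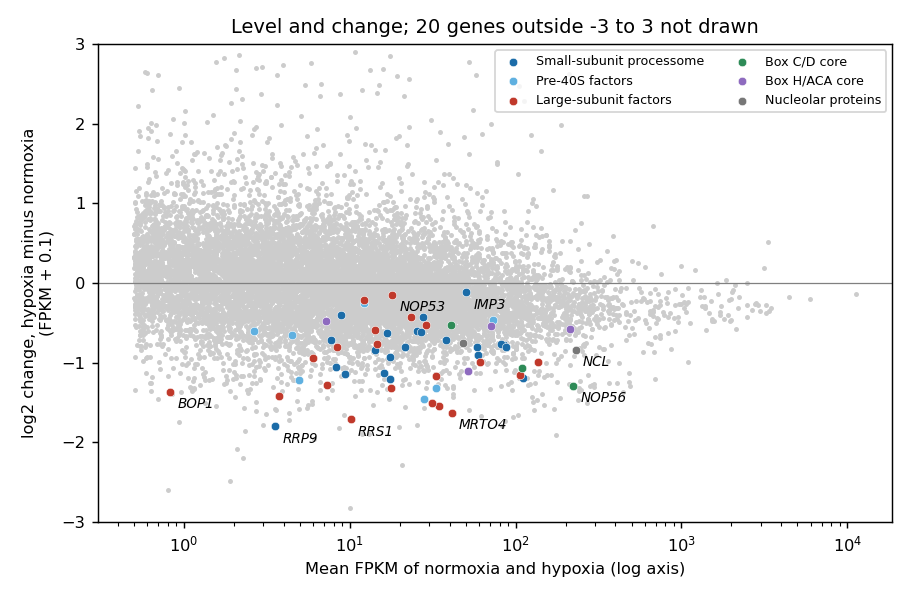
Mean FPKM of both conditions (log axis) against log2 change for all genes above the limit (grey) and the 58 factors (coloured by role); 20 genes outside the drawn range of -3 to 3 are left out. The factors lie mostly under the middle of the grey cloud at every level, from BOP1 at 0.830 FPKM to NCL at 231 FPKM.

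More than 1 transcript was listed for 15 of the factors, 43 transcripts in all. Each of the 43 was lower in hypoxia, against 57.9% of 14673 transcripts of all genes above the limit with more than 1 transcript, and 31 (72.1%) were lower by at least 1.5-fold, against 16.6%. The most abundant transcript was the same in both conditions in all 15, as it was in 94.3% of the 5125 such genes. NOP56 had the largest shift between its transcripts. Its coding transcript NM_006392 went from 247 to 86.5 FPKM (-1.51) and its noncoding transcript NR_027700 from 68.9 to 42.1 FPKM (-0.71). The noncoding share of NOP56 thereby went from 21.8% to 32.7%. NOP56 is a host gene, and its span on chromosome 20 (2633239 to 2639039 of GRCh37) holds SNORA51, SNORD86 and SNORD110. In GAR1, NM_032993 went from 6.71 to 4.36 FPKM, whereas NM_018983, with 1.64 FPKM in normoxia, was nearly level (-0.03). NOP2 showed the 1 other shift of more than 5 percentage points, with the share of NM_006170, 19.7% of the summed level in normoxia, higher by 6.33 percentage points in hypoxia. The transcripts of 1 gene share reads, so these shares depend on how Cufflinks divided them.

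Promoters were compared because the factors moved in the same direction. RefSeq promoters of GRCh38.p14, which run from 250 bases before to 50 bases after a start site, were matched for 51 of the 60 factors; BOP1, MPHOSPH10, NOL10, NOLC1, NOP58, RRP12, RRP1B, RRS1 and UTP23 were not matched. The palindrome CACGTG, known as the canonical E-box and read alike on both strands, was found in 21 of the 51 (41.2%). It was present in 12.4% of the promoters of 9671 genes above the FPKM limit and in 8.77% of all 27305 genes with a promoter. In all 21 the motif lay inside the 100 bases centred on the start site, a window in which 5.3% of the expressed genes had it. It was found in 12 of 26 small-subunit factors (46.2%) and 6 of 17 large-subunit factors (35.3%). The windows below show the E-boxes of the 8 factors with the largest changes among those that hold one, then that of the methyltransferase FBL, with the motif in capitals. Each is read 5′ to 3′ on the strand of its gene.
RRP9 (chr3:51941892-51941921, minus strand): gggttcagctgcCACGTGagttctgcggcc
MRTO4 (chr1:19251807-19251836, plus strand): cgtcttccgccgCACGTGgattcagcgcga
PNO1 (chr2:68157885-68157914, plus strand): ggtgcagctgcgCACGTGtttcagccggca
NOP2 (chr12:6568242-6568268, minus strand): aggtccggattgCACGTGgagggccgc
LTV1 (chr6:143843354-143843383, plus strand): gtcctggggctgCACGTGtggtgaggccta
BYSL (chr6:41921515-41921544, plus strand): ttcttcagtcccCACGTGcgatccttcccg
WDR43 (chr2:28894658-28894687, plus strand): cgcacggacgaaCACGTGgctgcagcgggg
GNL3 (chr3:52686026-52686055, plus strand): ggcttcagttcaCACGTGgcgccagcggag
FBL (chr19:39846356-39846385, minus strand): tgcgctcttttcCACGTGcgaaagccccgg

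The motif started 5 bases before the annotated start site in RRP9, at base 4 after it in WDR43, at base 7 in GNL3 and FBL and at base 36 in NOP2. Of the 24 E-boxes in the 21 promoters, 16 lay after the start site. IMP4, UTP18 and NOP10 had a pair each. The median log2 change was -0.99 in the 21 factors with the motif and -0.80 in the 28 factors without it that passed the FPKM limit, with 76.2% and 71.4% lower by 1.5-fold, and both ranges were wide (-1.80 to -0.43 and -1.55 to -0.12). Among other expressed genes, 1179 with it and 8443 without it, the medians were -0.12 with it and -0.07 without it, and the shares lower by 1.5-fold were 14.4% and 10.3%. NOP16 and NIP7, which came after RRP9 and MRTO4 in size of change among the matched factors, had no CACGTG in this window. A match in a window is a description of its letters and does not show that a protein bound there.

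A second comparison used genes that start beside a factor and are read in the other direction. In GRCh37, 16 factors had an expressed coding neighbour whose start lay within 1000 bases. The median log2 change of these 16 factors was -0.80, and that of their neighbours was 0.15. None of the 16 neighbours was lower by 1.5-fold, against 11.2% of all genes, and 16 genes are too few to compare such shares. A lower change than that of the neighbour was found for 15 of the 16 factors. Every factor above the limit was lower in hypoxia, so a high count would be likely beside most genes. Other pairings of genes were not run, and the count shows nothing particular to shared start sites. RRP9 lies 441 bases from PARP3, which had 0.863 and 0.959 FPKM (0.14) where RRP9 had -1.80. MRTO4 and EMC1 start 253 bases apart, and EMC1, a subunit of a membrane protein insertase, went from 9.47 to 10.6 FPKM (0.16). NOP16 and HIGD2A start 176 bases apart, and HIGD2A went from 72.8 to 65.5 FPKM (-0.15). WDR12 and NBEAL1 start 190 bases apart, and NBEAL1 went from 4.49 to 6.62 FPKM (0.55). Other neighbours were lower, with -0.49 for DNAAF10 beside PNO1 and -0.50 for HSF1 beside BOP1. MED20 beside BYSL had -0.18 and MCEE beside MPHOSPH10 -0.335. NOL8 did not have a lower change than its neighbour, with -0.43 against -0.49 for CENPP. With columns scaled to equal sums, the neighbours had a median of 0.36, and 12 of 16 lay above 0, near the 63.7% of all genes above 0 under that scaling. As deposited, 10 of 16 lay above 0, against 43.6% of all genes.

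**Figure D4:**
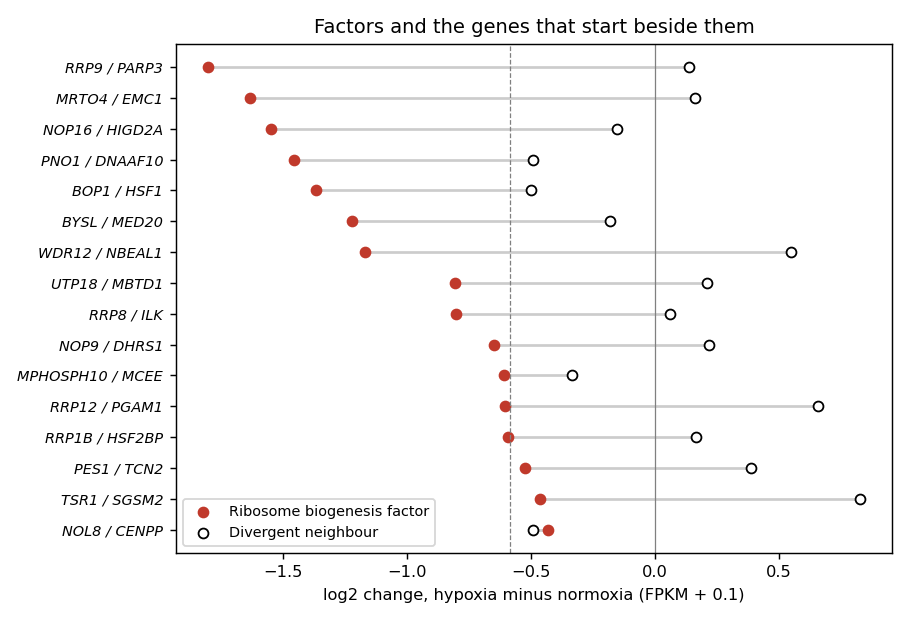
Log2 change of 16 ribosome biogenesis factors (red) and of the coding gene that starts within 1000 bases of each on the other strand (open circles), 1 pair per line. The factors range from -1.80 to -0.43 and the neighbours from -0.50 to 0.83, and no neighbour reaches the dashed line at 1.5-fold lower.

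Further genes of the pathway were grouped in lists that share no gene with the 60. For comparison with each of these lists, 11.2% of all genes were lower by 1.5-fold and 2.62% by 2-fold. Of 22 other small-subunit factors above the limit, all had a lower value in hypoxia and 16 were lower by 1.5-fold, with a median of -0.73. WDR3 had the lowest change, from 55.3 to 22.1 FPKM (-1.32), and FCF1 the highest, from 46.3 to 41.3 FPKM (-0.17). Of 29 other large-subunit factors, 19 were lower by 1.5-fold and 12 by 2-fold, with a median of -0.66. WDR74 was lowest there, from 41.8 to 14.0 FPKM (-1.57), and the AAA ATPase MDN1 highest, from 6.50 to 6.36 FPKM (-0.03).

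The nucleolar RNA helicases had a median of -0.51, with 7 of 15 lower by 1.5-fold, led by DDX21 at 206 and 91.1 FPKM (-1.17). DDX24 was the helicase with the smallest change, at 95.8 and 87.1 FPKM (-0.14). The RNA exosome, which trims the 3′ ends of precursors, had a median of -0.57 with 7 of 14 lower by 1.5-fold, from EXOSC4 at 2.58 and 1.03 FPKM (-1.25) to EXOSC10 at 43.1 and 37.9 FPKM (-0.18). The RNA polymerase I machinery also had a median of -0.57, with 7 of 15 lower by 1.5-fold, and ranged from POLR1G at 6.58 and 2.05 FPKM (-1.63) to TAF1C at 0.574 and 0.808 FPKM (0.43). The list of snoRNP assembly factors also holds SNU13 (-0.57), a box C/D core protein. The median of that list was -0.57, with 4 of 9 lower by 1.5-fold. It ranged from NUFIP1 at 8.78 and 2.996 FPKM (-1.52) to ZNHIT3 at 64.8 and 59.0 FPKM (-0.13).

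Cytosolic ribosomal proteins are the structural products that these factors handle. The 73 of their genes matched by symbol and above the limit were described by a smaller change. They are not a complete set, since RPL4 and RPL5 were not among them, and they include the paralog RPS27L. Their median was -0.28, against -0.07 for all genes. A lower value in hypoxia was found for 67 of the 73, against 56.4% of all genes. By 1.5-fold, 5 of 73 (6.85%) were lower, against 11.2% of all genes. RPS26 had the lowest change, from 294 to 155 FPKM (-0.92), and RPS16 the highest, from 49.6 to 87.3 FPKM (0.81). With columns scaled to equal sums the ribosomal protein median was -0.06, against 0.15 for all genes. Under that scaling 26 of 73 lay above 0, against 63.7% of all genes. The medians of the other lists stayed between -0.50 and -0.29.

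**Figure D5:**
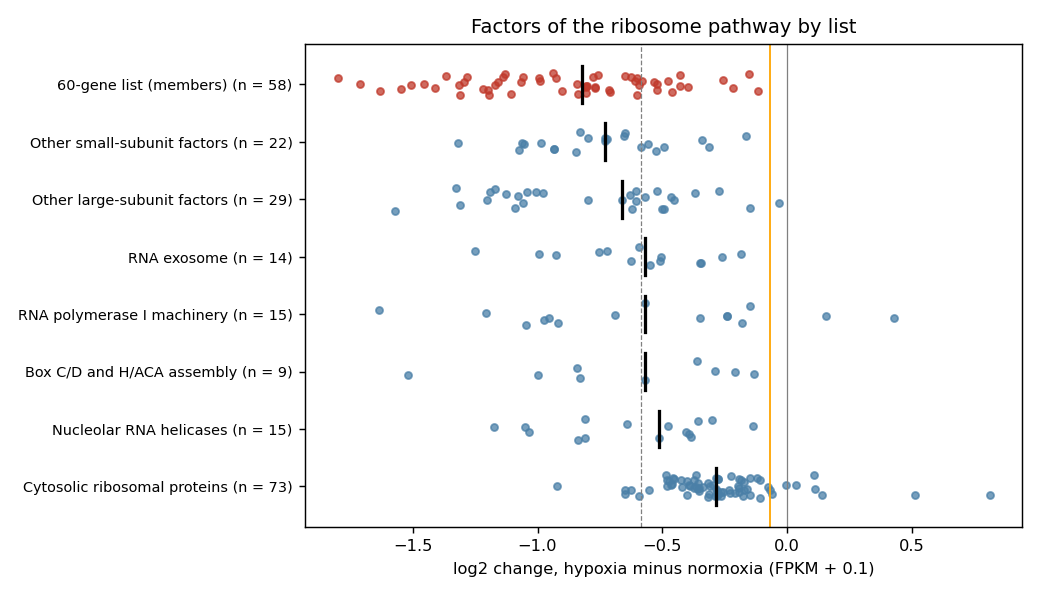
Log2 change of each gene in the list of 60 (red, 58 genes above the limit) and in 7 further lists of the ribosome pathway (blue), with a black bar at each median. The orange line marks the median of all genes (-0.07) and the dashed line 1.5-fold lower; the medians run from -0.82 for the factors to -0.28 for the cytosolic ribosomal proteins.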

How the data were processed

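Polyadenylated, strand-specific libraries of SQ20B cells, 4 in normoxia and 4 in hypoxia, were grouped by the source field of the labels. Per the labels and the study's methods, the authors aligned reads with STAR 2.3.0.1 to hg19 and used Cufflinks 2.1.1 with RefSeq annotation. The deposited FPKM values are 1 per condition over its replicates, and the depth of single libraries is unknown here. The 4 columns of the authors' own comparison (log2 fold change, test statistic, p-value and q-value) were not used. Since limma, the planned contingency, needs values per replicate, no test was run. Of 24812 transcript entries, 97.9% were paired with a gene symbol through RefSeq identifiers of GRCh38.p14, and FPKM was summed per gene. Genes with a mean of at least 0.5 FPKM were kept, and 0.1 FPKM was added before taking log2. A gene was counted as lower or higher at a change of 1.5-fold. Gene positions came from GENCODE lifted to GRCh37.

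The members and lists were chosen with earlier results of these data known. By rule, FPKM values are given for every factor of roles with 4 or fewer, for the 3 largest decreases, the smallest change and any increase in larger roles, for the paralog pairs RRP1 and RRP1B, GNL3 and GNL3L, and NOP56 and NOP58, and for the lowest and highest gene of other lists. Further named values, modules within the processome, start-site neighbours and the genes shown with an E-box were chosen after values were seen. Promoter letters were searched on both strands. Start-site neighbours lay on opposite strands within 1000 bases, with an overlap of up to 200. The summing and counting steps were tested on simulated data. Alternatives were other pseudocounts, limits, scalings, transcripts, fold limits and role assignments. Python 3.11.15, numpy 2.4.6, pandas 2.3.3 and matplotlib 3.10.9 were used.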

Additional observations from a re-analysis of the deposited data

How the results depend on the processing

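The median change of the factors moved from -0.82 to -0.60 with columns scaled to equal sums and to -0.69 with quantile normalization, and their count lower by 1.5-fold moved from 45 to 29 with equal sums. At a 2-fold limit the count was 22. The large-minus-small difference of -0.27 stayed between -0.42 and -0.19 and was -0.42 without members that have a named pseudogene, an alternative chosen after the data were seen. The causes were not tested. Single factors that changed sign were IMP3 (0.11), NOP53 (0.073) and NOL9 (0.008) under equal sums and IMP3 (0.061) under quantile normalization, and the median of all genes was 0.15 under equal sums. Other pseudocounts, limits on FPKM, coding transcripts only and the most abundant transcript only gave factor counts between 39 and 46 and medians between -0.83 and -0.79. The 39 were of 52 factors with a mean of at least 5 FPKM, against 12.5% of all genes there. With no limit the count was 46 of 59, against 10.3% of all genes. With 1 FPKM added it was 41 of 58, against 8.52%. Centring on the median of all genes gave 39 of 58, against 8.76%, and a median of -0.75. Quantile normalization gave 36 of 58, against 9.69%. No paired analysis was possible because the table holds 1 pooled value per condition, and leaving out single replicates was not run for the same reason. With no spread between replicates, the precision of the lowest values, those of BOP1 and NOC4L, cannot be given.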

Other observations

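Small nucleolar RNAs lay within the span of 9 of the factor genes on the same strand, namely NOL11, WDR43, TSR1, NOP53, GNL3, NOP56, NOP58, DKC1 and NCL. These hosts were more abundant than the others, with a median level of 146 FPKM in normoxia against 25.4 for the 49 factors without one. Their median log2 change was -1.07, against -0.81 for the others, and it spread from -1.29 for NOP56 to -0.15 for NOP53. The small nucleolar RNAs themselves are not polyadenylated and were not analysed here.

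The factors were spread over the range of base composition of their coding transcripts. In the lowest of 5 equal classes of genes by GC content, under 40.2%, the median change was -0.99 for 9 factors and -0.09 for the other genes, and in the highest class, above 56.8%, it was -0.69 for 12 factors and -0.08 for the others. In each of the 5 classes of GC content every factor lay below the median of the other genes.

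The letters ACGTG and GCGTG, the core forms of the site that HIF recognises, were searched in the same promoters on both strands, and every E-box also holds the first of these. The first, ACGTG, was present in 30 of 51 factors (58.8%) against 32.5% of expressed genes, and GCGTG in 37 (72.5%) against 58.2%. The factors with ACGTG had a median change of -0.82 and those without it -0.90. The pathway lists differed in their share with CACGTG, which was 50% of 26 other large-subunit factors, 42.9% of 21 other small-subunit factors, 6.78% of 59 ribosomal protein genes and 7.14% of 14 genes of the RNA polymerase I machinery.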
